A study of Mus musculus with 10 samples.

Results

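The proteasome genes were taken as the protein-coding genes of the GENCODE M21 mouse annotation whose symbols begin with Psma, Psmb, Psmc, Psmd, Psme, Psmf or Psmg followed by a number, which gave 50 of 21951 protein-coding genes and of 55450 annotated genes. They comprise 49 genes for subunits, activators, an inhibitor and assembly chaperones of the proteasome, and Psmc3ip, which meets the rule by its symbol but encodes a cofactor of meiotic recombination. The study used chromatin immunoprecipitation with sequencing (ChIP-seq) to map Qki-5, a nuclear form of Qki (a protein known for binding RNA), RNA polymerase II (Pol II) and the sterol-responsive transcription factor Srebp2 in oligodendrocytes differentiated in culture, and asked where these proteins occupy the genome with and without Qki. The Qk-/- cells came from neural stem cells of whole brains of postnatal day 1 pups that carried Nestin-CreERT2 and floxed Qk alleles, in which Qk was deleted in culture with 4-hydroxytamoxifen, so that deletion depended on Cre driven by the Nestin promoter in the stem cells. The wild-type (WT) cells are labelled as wild type without an allele, and whether they were untreated cells of the same pups is not given in the sources used here. Both groups are labelled as from an FvB/C57BL6 hybrid strain, whereas the paper describes the mice of its study as pure C57BL/6J, a difference not settled here. The cells of both were turned into oligodendrocytes in medium with the thyroid hormone T3. The data are 6 peak lists, each from 1 library, for Qki-5 (home-made antibody), Pol II (antibody against its C-terminal domain) and Srebp2 in Qk-/- and in WT cells. The Qki-5 and Pol II libraries were made at passage 7 and shared 1 input for each genotype, whereas those for Srebp2 came from passage 8 and had separate inputs. With 1 library a group there is no replicate error, so every difference between genotypes given here is a description of these libraries without a test.

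The proteasome degrades proteins tagged with ubiquitin. Its core particle is a stack of alpha rings, which gate the entrance, and beta rings, which hold the proteolytic sites, and a regulatory particle on either end recognises, unfolds and feeds in the substrates. The regulatory particle has a base built around a ring of ATPases and a lid that includes a deubiquitinating enzyme, and dedicated chaperones assemble both particles. Proteasome genes are transcribed in every cell type, with tissue-restricted exceptions in thymus, testis and cells exposed to interferon. In many cell types the transcription factor Nfe2l1 raises their transcription together when proteasome activity falls short, through antioxidant response elements in their promoters.

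A peak was assigned to a promoter when it overlapped the 2 kb on either side of an annotated transcription start site (TSS) by at least 1 bp. Its fold enrichment is the height of the ChIP signal at its summit relative to the local level that the authors' peak caller estimated from the input. Since the lists hold no read totals, the sequencing depth is unknown, and folds were compared between genotypes mainly as percentiles among the protein-coding promoters bound in the same list, so that a percentile of 90 would mark a promoter above 90% of those bound. The lists held 427 Qki-5, 12835 Pol II and 28 Srebp2 peaks in Qk-/- cells, against 7539, 32280 and 77 in WT cells. The deposited Qki-5 and Srebp2 lists are much shorter than the peak sets the paper describes, for a reason not settled here, so a gene that is not listed is one without a peak in these lists and not one shown to be unbound. At Qk itself, a Qki-5 promoter peak was listed in WT cells (8.13-fold) and none in Qk-/- cells, and Pol II was listed in both, at 9.48-fold in Qk-/- cells and 14.93-fold in WT cells; a promoter peak does not show whether the allele was deleted. Of 12 oligodendrocyte markers, 3 had a Pol II promoter peak in either genotype (Cnp, Olig1 and Olig2), and those without one included Mbp, Mag, Mog, Mobp, Sox10, Myrf, Cldn11 and Aspa. By contrast 7 of 8 neural stem cell and astrocyte markers had one in both genotypes, 2 of 4 precursor markers in Qk-/- cells and 3 in WT cells, 0 of 5 neuronal markers in Qk-/- cells and 1 in WT cells, and 0 of 5 microglial markers in either. The cells were labelled as oligodendrocytes, whereas the names given to the Pol II and Qki-5 peaks start with mNSC, and the part of either in the values at proteasome genes was not tested. In such bulk cultures, occupancy in fewer cells and less occupancy per cell cannot be told apart.

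Almost all proteasome genes carried Pol II at their promoters, and 18 of them carried Qki-5 in WT cells. A Pol II promoter peak was listed for 44 of the 50 genes in Qk-/- cells and 47 in WT cells, against 46.5% of all protein-coding genes in Qk-/- cells and 54.1% in WT cells. A Qki-5 promoter peak was listed for 1 gene in Qk-/- cells and 18 in WT cells, against 0.87% of all protein-coding genes in Qk-/- cells and 19.4% in WT cells. No Srebp2 promoter peak was listed for any of the 50 genes in either genotype, where the background was 0.118% in Qk-/- cells and 0.292% in WT cells. With so few Srebp2 peaks deposited, this count says little about Srebp2 at these promoters. The Srebp2 summit nearest to any of their TSSs lay 567394 bp away, from Psmc3ip on chromosome 11, in both genotypes. Of all protein-coding promoters with WT Qki-5, 4110 of 4258 also had WT Pol II, so the count was also set beside Pol II-bound genes. Among the promoters with a WT Pol II peak, 18 of 47 proteasome genes (38.3%) had Qki-5, beside 34.6% of all protein-coding genes, whereas Qki-5 was listed at 1.47% of protein-coding promoters without WT Pol II. The proteasome genes therefore stood close to other Pol II-bound genes in their Qki-5 count.

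**Figure D1:**
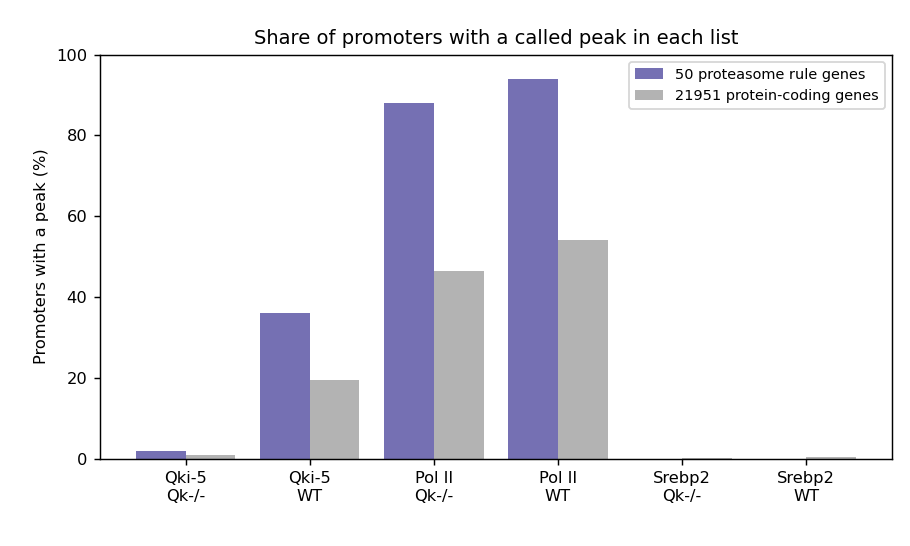
Share of promoters with a called peak (y axis, %) in each of the 6 peak lists (x axis, Qk-/- left of WT for each antibody), for the 50 proteasome rule genes (purple) and all 21951 protein-coding genes (grey). Pol II was listed at 88.0% of the proteasome rule genes in Qk-/- cells and 94.0% in WT cells, Qki-5 at 2.0% and 36.0%, and Srebp2 at none.

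The promoters of 7 proteasome genes on which the results turn are printed from RefSeq for GRCm38.p6, from base -200 to base 19 with the RefSeq start as base 0. Psmc6 and Psma4, whose GENCODE starts lie further upstream, are printed to bases -7 and -40 only and so end before the RefSeq start. Psmd11, Psmd2 and Psmg1 are among the 5 proteasome genes with the highest Pol II fold in WT cells and all have Qki-5, Psma2 shares its promoter with a divergent gene, Psmc6 has Qki-5 and both an Ets motif and GC boxes, and Psmb6 and Psma4 have the lowest and highest Pol II percentile in Qk-/- cells relative to WT cells. Capitals mark, on either strand, CCAAT, the GC box GGGCGG, the antioxidant response element core TGACNNNGC, the Ets motif CCGGAAG, the nuclear respiratory factor 1 motif GCGCATGC, the Qki response element ACTAAC (which Qki binds in RNA) and TATAAA.
Psmd11, chr11:80428415-80428634, plus strand: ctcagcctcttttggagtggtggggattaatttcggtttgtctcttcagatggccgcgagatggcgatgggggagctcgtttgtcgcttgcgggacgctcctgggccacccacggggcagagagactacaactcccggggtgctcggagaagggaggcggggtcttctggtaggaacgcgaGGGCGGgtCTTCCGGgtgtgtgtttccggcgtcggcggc
Psmd2, chr16:20651452-20651671, plus strand: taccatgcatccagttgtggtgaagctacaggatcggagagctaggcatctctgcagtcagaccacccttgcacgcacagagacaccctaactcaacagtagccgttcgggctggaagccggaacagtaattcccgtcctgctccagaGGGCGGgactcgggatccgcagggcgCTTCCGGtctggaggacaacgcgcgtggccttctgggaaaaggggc
Psmg1, chr16:95990941-95991160, minus strand: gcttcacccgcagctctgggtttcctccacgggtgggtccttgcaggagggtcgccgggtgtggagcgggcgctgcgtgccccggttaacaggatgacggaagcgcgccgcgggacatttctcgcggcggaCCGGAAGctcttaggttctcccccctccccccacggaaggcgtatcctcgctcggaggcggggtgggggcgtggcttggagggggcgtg
Psma2, chr13:14613042-14613261, plus strand: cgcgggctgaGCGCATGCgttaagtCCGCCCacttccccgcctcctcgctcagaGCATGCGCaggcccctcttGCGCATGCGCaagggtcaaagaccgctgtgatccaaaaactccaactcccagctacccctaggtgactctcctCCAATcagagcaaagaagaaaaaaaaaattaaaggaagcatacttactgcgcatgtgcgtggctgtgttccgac
Psmc6, chr14:45329624-45329817, plus strand: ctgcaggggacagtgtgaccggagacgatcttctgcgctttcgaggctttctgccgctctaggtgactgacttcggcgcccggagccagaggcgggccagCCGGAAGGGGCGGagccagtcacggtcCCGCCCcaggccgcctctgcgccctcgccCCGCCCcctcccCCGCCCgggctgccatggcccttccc
Psmb6, chr11:70525157-70525376, plus strand: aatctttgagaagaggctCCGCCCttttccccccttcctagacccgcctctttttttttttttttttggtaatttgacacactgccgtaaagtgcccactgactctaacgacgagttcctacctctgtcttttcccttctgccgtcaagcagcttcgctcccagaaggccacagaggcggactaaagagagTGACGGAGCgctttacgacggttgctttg
Psma4, chr9:54950659-54950819, plus strand: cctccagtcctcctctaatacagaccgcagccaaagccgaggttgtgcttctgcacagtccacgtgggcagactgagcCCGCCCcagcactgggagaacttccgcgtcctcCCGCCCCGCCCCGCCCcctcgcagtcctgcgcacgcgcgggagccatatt
In Psmd11 a GC box from -19 to -14 and an Ets motif on the opposite strand from -11 to -5 lie beside the start, and the WT Qki-5 summit lies at base 8 and the WT Pol II summit at base 67. In Psmd2 the GC box lies from -52 to -47 and the Ets motif from -26 to -20, with the WT Qki-5 summit between them at -36. The Ets motif of Psmg1 lies from -69 to -63 and its Qki-5 summit at -100. Psma2 holds 4 matches to the nuclear respiratory factor 1 motif, of which those starting at -127 and -125 overlap each other, and a CCAAT box from -54 to -50 next to its Qki-5 summit at -58. Psmc6 has an Ets motif from -100 to -94, joined without a gap to the first of 4 GC boxes. Psmb6 has an antioxidant response element core from -9 to -1, and Psma4 has 4 GC boxes between -122 and -74, of which 3 overlap one another by a base.

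RefSeq promoters of 300 bases (250 before the start and 50 from it on) were found for 42 of the 50 genes, 45 promoters in all; Psma8, Psmb1, Psmb2, Psmb7, Psmc3, Psmd3, Psmd7 and Psmg2 had no entry. The Ets motif CCGGAAG was in 16 of the 45, from 15 genes (35.6%), beside 11.6% of 21263 promoters of protein-coding genes. That background was not limited to genes with Pol II, and the share among those was not computed. It was in 50.0% of the 14 promoters of genes with WT Qki-5 and 29.0% of the 31 without. The 15 genes were Psma6, Psmc1, Psmc2, Psmc3ip, Psmc6, Psmd11, Psmd12, Psmd13, Psmd2, Psmd4, Psmd6, Psme3, Psme4, Psmg1 and Psmg3. The motif was unevenly placed: it was in 1 of 15 core particle genes with a promoter entry, Psma6, in 0 of 8 beta genes, and in 13 of 26 genes of the regulatory particle, activators, inhibitor and chaperones, the remaining gene being Psmc3ip. This split was made after the values were seen. The other motifs were nearer the background. The GC box was in 53.3% of proteasome promoters and 46.2% of all protein-coding promoters, CCAAT in 33.3% of proteasome promoters and 38.2% of all, TATAAA in 8.89% and 12.6%, and ACTAAC in 6.67% and 5.46%. The nuclear respiratory factor 1 motif was in 6.67% (Psma2, Psmc5 and Psmg1) and 3.52%. The antioxidant response element core was in 13.3% (Psmb5, Psmb6, Psmc6, Psmd12, Psmd9 and Psme4) and 13.0% of all promoters. Median GC content was 57.3% in proteasome promoters and 56.3% in all, and the median observed over expected CpG ratio was 0.73 and 0.57. A match describes letters only, and binding of any factor to these motifs was not measured.

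Qki-5 in WT cells was found at genes of most parts of the particle: at 3 of 7 alpha-ring genes, 2 of 4 genes for beta subunits without an active site, 1 of 3 genes for the constitutive proteolytic beta subunits, 3 of 6 ATPases, 5 of 11 non-ATPase subunits of the regulatory particle, 1 of 3 base chaperones, 2 of 4 core chaperones and the inhibitor Psmf1. It was listed at 0 of 4 immunoproteasome and thymoproteasome beta genes and 0 of 5 activator genes, of which 3 and 4 had WT Pol II. These are small numbers beside the 34.6% of Pol II-bound protein-coding genes with Qki-5. The 18 folds ran between 3.49 and 9.48, with a median percentile of 54.0 among Qki-5-bound protein-coding promoters. Leaving out peaks under 5-fold would keep 10 of the 18, beside 2383 of the 4258 protein-coding genes with WT Qki-5. The share of proteasome genes that remained was therefore close to that of all Qki-5-bound genes.

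Psmb1, a beta subunit without an active site, had the strongest Qki-5 peak of the group at 9.48-fold, rank 276 of the 7539 WT Qki-5 peaks and percentile 96.7 (chr17:15497933-15498462, mm10, summit 12 bp downstream of a Psmb1 TSS). This peak also lay in the promoter of the divergent gene Tbp, the TATA-binding protein, and a weaker peak of 3.61-fold lay at -132 bp from another Psmb1 TSS. Psmb2, another beta subunit without an active site, had 6.16-fold, with the summit 30 bp into the gene. Psmb7, which carries the trypsin-like site, had 6.86-fold at percentile 84.4, the next highest fold after Psmb1. Among the alpha subunits, Psma3 had 5.81-fold, Psma1 had 4.24-fold and Psma2 had 4.07-fold. The Psma2 peak (chr13:14613179-14613428) had its summit at -56 bp from the TSS and also lay in the promoter of the mitochondrial ribosomal gene Mrpl32, whose TSS was the nearer one. The core particle thus held both the highest and some of the lowest Qki-5 folds in the group.

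In the regulatory particle, the ATPase genes Psmc2, Psmc6 and Psmc3 had 5.61-, 5.52- and 4.56-fold. The strongest peak at Psmc2 lay 1482 bp inside the gene, and a peak of 4.56-fold lay at -70 bp from the TSS. Both peaks also lay in the promoter of the divergent chaperone gene Dnajc2. Psmd1 and Psmd2, the scaffold subunits of the base, had 5.89- and 4.23-fold. The lid genes Psmd12, Psmd3 and Psmd11 had 5.11-, 4.43- and 3.49-fold, the Psmd11 peak being the weakest of the 18 and at percentile 6.9. All of these were listed in WT cells, and of the 18 only Psmd3 was listed for Qki-5 in Qk-/- cells as well, at 5.74-fold (percentile 21.7 in the Qk-/- list), against 4.43-fold in WT cells (percentile 28.3). Its peaks, chr11:98682513-98682661 in Qk-/- cells and chr11:98682576-98682813 in WT cells, overlapped by 86 bp with summits 75 bp apart, and both also lay in the promoter of the annotated gene Gm12356. Over all protein-coding genes, 4.18% of those with WT Qki-5 also had it in Qk-/- cells, beside 1 of 18 here. Because a peak in Qk-/- cells was called at Psmd3, the part of signal other than Qki-5 in its WT peak was not tested; without WT peaks that overlap a Qk-/- peak the WT count is 17.

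Among the genes for assembly and control, Psmg4 and Psmg1, chaperones of the core, had 6.6- and 5.66-fold, Psmd5, a chaperone of the base, had 4.53-fold with its summit at -380 bp from the nearest TSS, and Psmf1, an inhibitor of the core in the test tube, had 4.53-fold at 65 bp downstream. Peaks at 13 of the 18 genes lay in the promoter of no other gene, the exceptions being Psma2, Psmb1, Psmc2, Psmc3 and Psmd3. Over all protein-coding genes, 2484 of the 4258 with WT Qki-5 had such a peak. The summits were close to the start: 83.3% of the 18 lay within 200 bp of a TSS, beside 67.4% of all Qki-5-bound protein-coding genes.

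**Figure D2:**
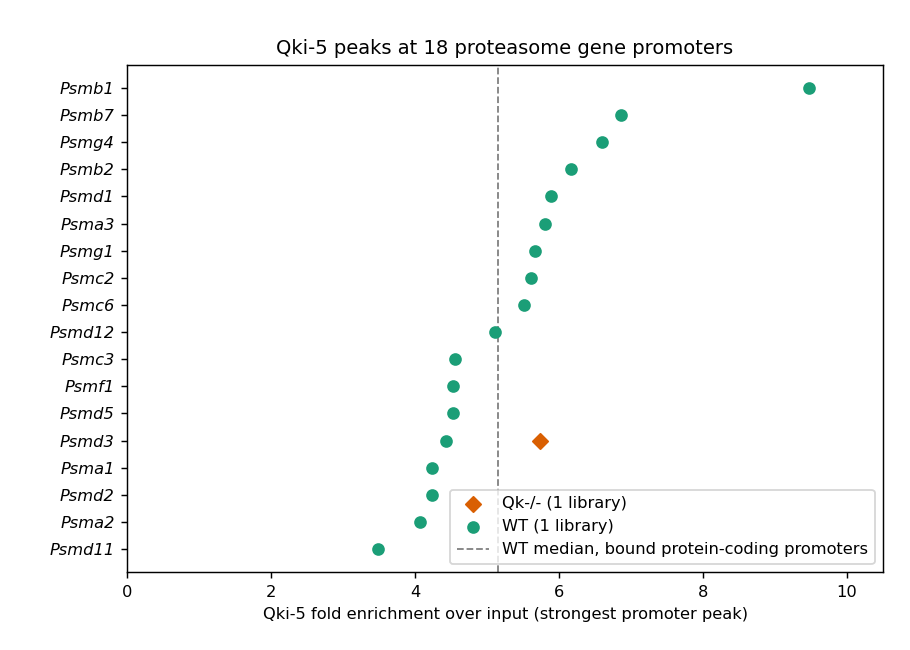
Qki-5 fold enrichment over input (x axis) of the strongest promoter peak at the 18 proteasome genes with one (y axis), in Qk-/- cells (diamond) and WT cells (circles), 1 library each, with the WT median of all bound protein-coding promoters, 5.15, as a dashed line. Folds in WT cells ran between 3.49 at Psmd11 and 9.48 at Psmb1, and only Psmd3 had a Qk-/- peak, at 5.74.

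Pol II in Qk-/- cells was listed at 44 of the 47 proteasome genes that had it in WT cells (93.6%), beside 85.7% of all protein-coding genes. All 44 genes called in Qk-/- cells were also called in WT cells, as were 99.6% of protein-coding genes. All 18 genes with WT Qki-5 kept a Pol II call in Qk-/- cells, where the background was 95.5%, and 26 of the 29 with WT Pol II but no Qki-5 did, where it was 80.5%. The 3 genes without a Qk-/- call were Psma5, an alpha subunit, at 10.74-fold in WT cells, Psmb9, an interferon-inducible beta subunit, at 10.58-fold, and Psmd9, a chaperone of the base, at 10.09-fold. All 3 lay in the bin next to the lowest when WT Pol II folds were cut into 5 equal bins (8.75 to 13.44), in which 86.7% of protein-coding genes and 6 of 9 proteasome genes were called in Qk-/- cells. The WT peak at Psmb9 had its summit 450 bp inside the gene and also lay in the promoter of the divergent peptide-transporter gene Tap1. No Pol II peak was listed in either genotype at Psma8, the testis alpha subunit, Psmb11, the thymus beta subunit, or Psme2b, an annotated copy of the activator gene Psme2. How reads that fit both Psme2 and Psme2b were placed is not given in the sources used here, so the values at both are uncertain.

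The Pol II fold of the 44 genes called in both ran between 4.15 and 19.86 in Qk-/- cells, and over the 47 genes between 6.29 and 35.72 in WT cells. It was lower in Qk-/- than in WT cells at 42 of the 44, with a median ratio of Qk-/- over WT of 0.553, beside 0.61 over 10177 protein-coding genes called in both. Fold was higher in Qk-/- cells at 2 of the 44, Psma4 and Psmf1, against 13.4% of protein-coding genes. Since the depths of the libraries are unknown, the general offset cannot be told apart from depth or enrichment of the library as a whole. Psme4, a nuclear activator, was highest in Qk-/- cells at 19.86-fold, against 27.58-fold in WT cells. Next in Qk-/- cells were Psmb4, a beta subunit without an active site, at 19.7-fold, against 26.87-fold in WT cells, and Psma6, an alpha subunit, at 19.32-fold, against 27.99-fold in WT cells. Psmd11 and Psmd5 followed with 18.67- and 18.1-fold in Qk-/- cells, against 29.3- and 35.72-fold in WT cells, where Psmd5 was the highest of all. Psmg1 had 16.69-fold in Qk-/- cells and 35.38-fold in WT cells, and Psmd2 had 17.78-fold in Qk-/- cells and 32.14-fold in WT cells. These genes, from the activator, the core, the lid, the base and both sets of chaperones, were all above percentile 80 in both lists. Psmb10, an inducible beta subunit, was also among the 5 highest in WT cells but not in Qk-/- cells. It had 8.51-fold in Qk-/- cells (percentile 36.4) and 28.57-fold in WT cells (percentile 85.9).

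At the low end, Psme1, a subunit of the interferon-inducible activator, had 4.15-fold in Qk-/- cells and 6.29-fold in WT cells, the lowest in each. Psmd10, a chaperone of the base also known as gankyrin, had 4.79-fold in Qk-/- cells and 7.5-fold in WT cells, and Psmd6 in the lid had 4.66-fold in Qk-/- cells and 11.88-fold in WT cells. Psmb8, the inducible chymotrypsin-like subunit, had 4.93-fold in Qk-/- cells and 10.15-fold in WT cells, and the ATPase Psmc3 had 5.25-fold in Qk-/- cells and 14.31-fold in WT cells. Psmf1 and Psmg4 were among the 5 lowest in WT cells only, with 10.39- and 8.14-fold in Qk-/- cells, against 9.33- and 10.09-fold in WT cells. Psme2, the partner of Psme1, had 8.9-fold in Qk-/- cells and 13.98-fold in WT cells.

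**Figure D3:**
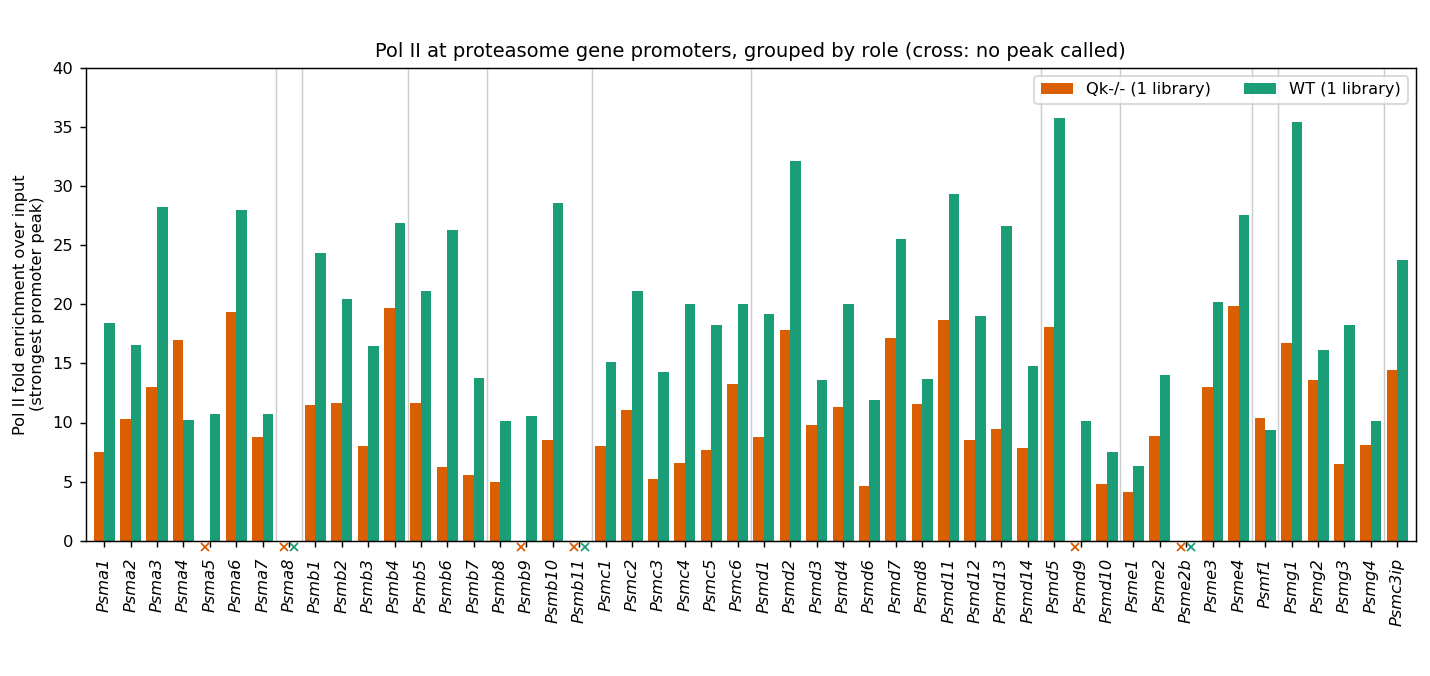
Pol II fold enrichment over input (y axis) of the strongest promoter peak of each of the 50 genes (x axis, grouped by role with grey lines between roles) in Qk-/- cells (orange, left bar) and WT cells (green, right bar), 1 library each. Crosses under the axis mark genes with no peak called. Fold was higher in Qk-/- cells at Psma4 and Psmf1 only, and no peak was listed at Psma8, Psmb11 and Psme2b in either genotype.

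As a percentile within its own list, Pol II at the 44 genes had a median of 48.3 in Qk-/- cells and 62.9 in WT cells, and the median difference of Qk-/- minus WT was -8.8 points, beside -4.3 points over all protein-coding genes called in both. Single genes ran between -65.3 and 56.2 points. The percentile was lower by at least 25 points in Qk-/- cells at 12 genes, against 19.8% of protein-coding genes: Psma1, Psmb10, Psmb6, Psmb7, Psmc3, Psmc4, Psmc5, Psmd1, Psmd12, Psmd13, Psmd6 and Psmg3. It was higher by at least 25 points at 2, Psma4 and Psmf1, against 9.84%. The limit of 25 points was chosen after the values were seen. Because the WT list ranks more genes at its low end, the ranks were also taken among only the genes called in both. The count lower by at least 25 points was then 7 of 44 (Psma1, Psmb10, Psmb6, Psmc3, Psmc4, Psmd13 and Psmg3), near the 14.9% of all genes. The count higher was 4 (Psma4, Psmd8, Psmf1 and Psmg2), against 15.2%, and the median difference was -4.3 points. With that ranking, 27 of the 44 were lower in Qk-/- cells, beside 49.1% of protein-coding genes.

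The genes that stood farthest apart between the lists had different roles. Psmb6, the caspase-like subunit, had 6.28-fold in Qk-/- cells (percentile 16.6) and 26.3-fold in WT cells (percentile 81.9), with the strongest summit 15 bp into the gene in Qk-/- cells and 35 bp in WT cells. Psmb7 had percentile 9.8 in Qk-/- cells and 41.6 in WT cells, whereas Psmb5, the constitutive chymotrypsin-like subunit, had 60.0 in Qk-/- cells and 69.6 in WT cells. The ATPase genes had a median percentile of 30.2 in Qk-/- cells and 63.0 in WT cells. Among them Psmc4, Psmc3 and Psmc5 differed by -46.8, -35.6 and -31.0 points. Psmc1 and Psmc2 differed by -15.0 and -13.1 points, and Psmc6 by 3.3 points. The Psmc2 value depends on the choice of its strongest peak, which lay inside the gene in both lists. Its other peak, nearer the TSS, had 6.28-fold in Qk-/- cells and 20.46-fold in WT cells. Both peaks also lay in the promoter of Dnajc2. In the lid, Psmd13 had percentile 43.9 in Qk-/- cells and 82.5 in WT cells. Both of its peaks also lay in the promoter of Sirt3, with summits at -150 bp in Qk-/- cells and -181 bp in WT cells. Assigned to the nearest TSS, neither peak counted for Psmd13. The lid subunits Psmd7 and Psmd3 were 2.8 and 5.5 points higher in Qk-/- cells. Psmd14, the deubiquitinating subunit, had percentile 30.2 in Qk-/- cells and 45.4 in WT cells, and Psmd4, a ubiquitin receptor, had 58.2 in Qk-/- cells and 66.3 in WT cells.

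In the other direction, Psma4, an alpha subunit, had 16.94-fold in Qk-/- cells (percentile 82.7) and 10.19-fold in WT cells (percentile 26.5). Its peak was 529 bp wide in Qk-/- cells and 1255 bp wide in WT cells. The summit lay 76 bp into the gene in Qk-/- cells and 60 bp in WT cells. Both peaks also lay in the promoter of the annotated gene AY074887. By the peak caller's −log10 q-value the order was reversed, at 41.27 in Qk-/- cells and 52.16 in WT cells. Psmf1 had percentile 51.2 in Qk-/- cells and 22.6 in WT cells. Psmg2, a core chaperone, and Psmd8, a lid subunit, were 19.5 and 18.1 points higher in Qk-/- cells. With ranks among only the genes called in both, they were 27.0 and 26.8 points higher. The 6 alpha-ring genes called in both had a median percentile of 59.2 in Qk-/- cells and 57.0 in WT cells, the activators 53.7 in Qk-/- cells and 54.6 in WT cells, and the core chaperones 51.9 in Qk-/- cells and 55.7 in WT cells.

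The median difference in Pol II percentile was -9.4 points at the 18 genes with WT Qki-5, within -35.6 to 28.6, and -8.8 points at the 26 without, within -65.3 to 56.2. Over all protein-coding genes the medians were -6.2 points with WT Qki-5 and -2.9 points without. With ranks taken among only the genes called in both, the medians were -7.4 points at the proteasome genes with WT Qki-5 and -2.3 points at those without, beside -2.1 and 2.5 points over all protein-coding genes with and without it. The gap between genes with and without Qki-5 thus depended on the ranking, and the ranges overlapped widely under both. Psmb6, Psmb10, Psmc4, Psmg3 and Psmd13, the 5 genes with the largest differences below 0, had no Qki-5 peak, as was so for 26 of the 44 genes. Psmc3, Psma1 and Psmb7, which followed at -35.6, -32.8 and -31.9 points in the percentile within each list, all had WT Qki-5. Across the 18 genes with both proteins in WT cells, Spearman's rho between Qki-5 and Pol II fold was -0.075, beside 0.13 over 4110 protein-coding genes; the points share both libraries and the input. Pol II folds in Qk-/- and WT cells were related with a rho of 0.631 over the 44 genes, beside 0.618 over 10177 protein-coding genes.

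**Figure D4:**
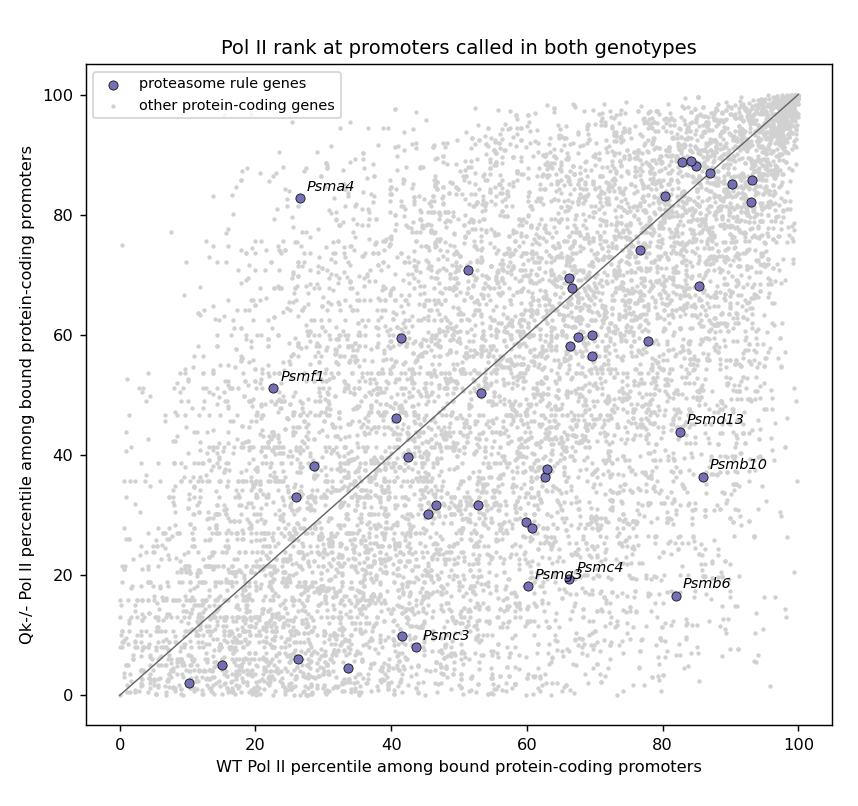
Pol II percentile among bound protein-coding promoters in Qk-/- cells (y axis) against WT cells (x axis) for promoters called in both, with the 44 proteasome rule genes in purple, all other protein-coding genes in grey and the line of equal percentiles. Psmb6 lies farthest below the line, at 16.6 in Qk-/- cells and 81.9 in WT cells, and Psma4 farthest above it, at 82.7 and 26.5.

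The peaks at proteasome genes were placed close to the start sites. Pol II summits lay within 200 bp of a TSS at 86.4% of the genes in Qk-/- cells and 89.4% in WT cells, beside 73.8% of all bound protein-coding genes in Qk-/- cells and 73.3% in WT cells. They were downstream of the TSS at 86.4% in Qk-/- cells and 74.5% in WT cells, beside 71.0% of all bound protein-coding genes in Qk-/- cells and 69.9% in WT cells, with a median of 74.5 bp in Qk-/- cells and 69.0 bp in WT cells. The median peak width was 615.5 bp in Qk-/- cells and 1252 bp in WT cells, beside 701 bp in Qk-/- cells and 1332 bp in WT cells over all bound protein-coding genes. Farthest from a TSS was Psmc2, with summits 1388 bp inside the gene in Qk-/- cells and 1410 bp in WT cells. Next was Psmb10, with summits 1166 bp inside in Qk-/- cells and 1123 bp in WT cells. Psme2 followed, with summits at -684 bp in Qk-/- cells and -728 bp in WT cells. Nearer its TSS, Psmc2 had a second Pol II peak in each list. It lay at -159 bp in Qk-/- cells (6.28-fold, against 11.03-fold inside the gene) and at -155 bp in WT cells (20.46-fold, against 21.11-fold inside). The Psme2 peaks also lay in the promoter of the divergent ubiquitin-ligase gene Rnf31, so that Pol II of the 2 genes cannot be told apart there. The 18 WT Qki-5 peaks all lay inside WT Pol II peaks, with a median of 95.5 bp between the summits and a range of 21 to 459 bp. All 18 also overlapped a Pol II peak of the Qk-/- list, and 10 lay inside one. The same shares over all Qki-5-bound protein-coding genes were not computed. Since 4110 of those 4258 genes also had a WT Pol II promoter peak, the overlap is not read as a trait of the proteasome genes.

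**Figure D5:**
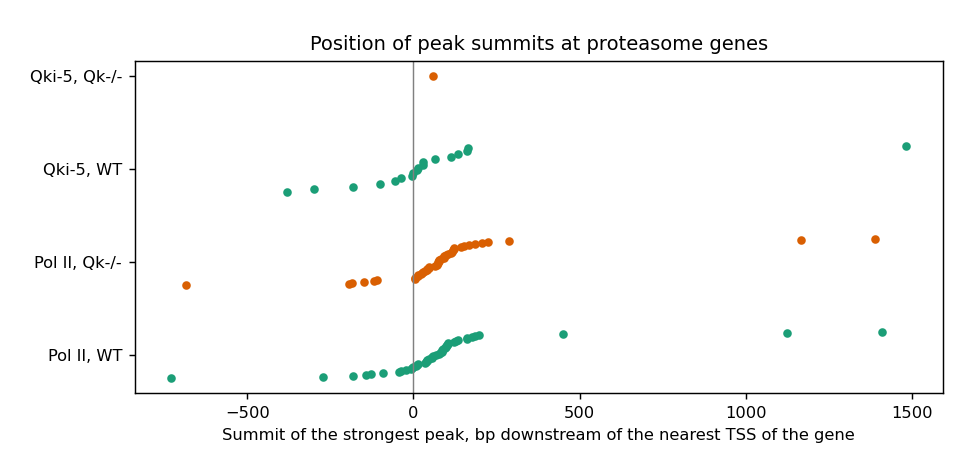
Summit of the strongest promoter peak at each proteasome rule gene, in bp downstream of its nearest TSS (x axis), for Qki-5 and Pol II in Qk-/- cells (orange) and WT cells (green). Each point is 1 gene and the points of a row are sorted by position. Most summits lie within 200 bp of the TSS. For Pol II, Psmc2 (1388 bp in Qk-/- cells, 1410 bp in WT cells) and Psmb10 lie farthest downstream and Psme2 (-684 and -728 bp) farthest upstream. For Qki-5, Psmc2 lies farthest downstream, at 1482 bp in WT cells.

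Pol II peaks further inside the gene had a summit over 2 kb from every TSS of that gene, and start sites of other genes were not excluded. They were listed at 2 of the 44 genes in Qk-/- cells (Psma2 and Psmc3), against 6.65% of protein-coding genes with a promoter peak. In WT cells they were listed at 15 of 47, against 31.5%. The 15 included 4 alpha-ring genes, 4 constitutive beta genes, the ATPases Psmc3 and Psmc5, Psmd1, Psmd12 and Psmd6 of the regulatory particle, and the chaperones Psmd5 and Psmg4. Both shares were near the background of their own list. A gene on the opposite strand started within 1 kb upstream of 11 of the 50 genes (22.0%), against 14.7% of protein-coding genes: Psma2, Psma7, Psmb1, Psmb9, Psmc2, Psmc3, Psmc5, Psmd10, Psmd13, Psme2 and Psmg2. Of the 18 genes with WT Qki-5, 4 had such a neighbour, against 28.4% of Qki-5-bound protein-coding genes. Counting only Pol II peaks that lie in the promoter of no other gene would leave 29 genes in Qk-/- cells and 28 in WT cells, beside 28.4% of all protein-coding genes in Qk-/- cells and 34.4% in WT cells.

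Other genes of the ubiquitin-proteasome pathway were taken from a list drawn up by hand, of which 25 of 26 were found in the annotation. All 25 had Pol II promoter peaks in both genotypes and none had Srebp2. Qki-5 was listed at 1 of them in Qk-/- cells and 17 of 25 in WT cells, beside 34.6% of Pol II-bound protein-coding genes in WT cells. The list was chosen by hand with earlier results known, so no more is read from this. The one in Qk-/- cells was Sem1, a small lid subunit outside the symbol rule, at 8.03-fold, against 6.8-fold in WT cells. The ubiquitin gene Ubb was near the top of the Pol II ranking in both lists, at 57.61-fold in Qk-/- cells and 64.24-fold in WT cells, and had WT Qki-5 at 5.66-fold. The strongest Qki-5 fold of the list was 9.74 at Nfe2l2, a regulator of the antioxidant response, whereas Nfe2l1 had no Qki-5 peak. Adrm1, a ubiquitin receptor of the base, had Qki-5 at 7.2-fold, and the core chaperone Pomp at 4.53-fold. Of the factors that act on the particle, Ube3c, a ubiquitin ligase, had Pol II at 4.63-fold in Qk-/- cells (percentile 4.4) and 17.98-fold in WT cells (percentile 58.9). The deubiquitinases Uchl5 and Usp14 had more Pol II fold in Qk-/- cells, at 11.82 and 10.07, against 8.2 and 7.62 in WT cells.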

How the data were processed

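Peaks of Qki-5, Pol II and Srebp2 in Qk-/- and WT cells were taken from 6 lists, each called by the authors by MACS2 2.1.2 (q-value threshold 0.05) in 1 library against the input of its genotype; the 4 input libraries entered only there. According to the methods, reads were trimmed, aligned to mm10 with Bowtie2 and stripped of duplicates, whereas the submitters' processing notes name Bowtie 1.2.2 and bcl2fastq. The deposited fold enrichment is the ratio of the summit pileup to the local input background. The deposited −log10 p-value and −log10 q-value come from the caller's test at the summit, and the score deposited by the authors was checked to be 10 times the −log10 q-value. Read totals are not part of the lists, so depth is unknown and no counting precision can be given. All 53186 peaks were loaded in Python 3.11.15 (pandas 2.3.3, numpy 2.4.6), and none ran past a chromosome end.

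Promoters were 2 kb on either side of the 77258 TSSs of GENCODE M21, a peak counted for every promoter it overlapped by 1 bp, and the strongest peak was kept for each gene. The assignment recovered 200 of 200 peaks planted near 3000 made-up TSSs on simulated data, with 0 false. Every gene meeting the symbol rule could be named, and those with Qki-5, with the 5 highest or lowest Pol II folds, or with Pol II in 1 or neither genotype were described in full. Sequences are RefSeq promoters of GRCm38.p6. Spearman's rho was computed with scipy 1.17.1 and figures with matplotlib 3.10.9. The genes, lists and descriptions were chosen with earlier results of these data known. Alternatives were a q-value of 0.01, a fold of 5, windows of 1 and 2.5 kb, the summit, the nearest TSS, ranks by −log10 q-value or among all biotypes, and others added after the data were seen. Some single genes of the comparison lists are not reported here.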

Additional observations from a re-analysis of the deposited data

How the results depend on the processing

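Of 29 alternatives for the counts of proteasome genes with a Qki-5 or Pol II peak, 25 gave a count within 1.5 times of that reported. The Srebp2 count was 0 in each of 12 alternatives, and those that only remove peaks could not move it. A minimum of 5-fold left 10 genes with WT Qki-5, without Psma1, Psma2, Psmc3, Psmd11, Psmd2, Psmd3, Psmd5 and Psmf1. With only the peaks in the promoter of no other gene, an alternative added after the data were seen, 0 genes had Qki-5 in Qk-/- cells, and Pol II was left at 29 genes in Qk-/- cells and 28 in WT cells. Assigning each peak to the nearest TSS removed Psma2 from the WT Qki-5 genes, Psmd13 and Psme2 from the Pol II genes in Qk-/- cells, and Psma2, Psmb9 and Psmd13 from those in WT cells.

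Median percentiles ranked by −log10 q-value were 28.0 for Qk-/- Qki-5 (Psmd3 alone), 47.1 for WT Qki-5, 46.0 for Qk-/- Pol II and 54.2 for WT Pol II, and rho between Qki-5 and Pol II was -0.147. A window of 1 kb gave 42.0 for WT Qki-5, and ranks among genes of all biotypes gave 23.1 for Qk-/- Qki-5, 52.4 for WT Qki-5 and 62.0 for WT Pol II. Ranking only the genes called in both genotypes, also added after the data were seen, gave 7 genes lower and 4 higher by at least 25 points in Qk-/- cells and a median difference of -4.3 points. The cause of these shifts was not tested. No paired analysis was possible because each antibody and genotype has 1 library. The unknown depth limits every comparison of folds between lists, and an unlisted peak does not show that a promoter was unbound.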
